A study of Bos taurus with 12 samples.

Results

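Gluconeogenesis was followed through 10 genes in the liver of newborn calves: PC, PCK1, PCK2, FBP1, G6PC1, G6PC3 and SLC37A4, which carry out or serve its committed steps, and GCGR, CRTC2 and PPARGC1A, which control it. They were chosen by name, for their place in the pathway and with earlier results of these data known, and all 10 were found among the 30336 gene IDs of the count files and passed the filter on low counts. Liver biopsies of Holstein heifer calves at 4 d of age gave 12 libraries, labelled as 6 CON and 6 MET calves. The CON calves were born to cows on a close-up diet without added Met, which held 15.3% crude protein and 1.47 Mcal of energy per kg of dry matter, and the MET calves to cows that received the same diet plus ethyl-cellulose rumen-protected Met over the last 28 d of gestation. The supplement was thus given to the dam, the calves of both groups were managed alike after birth, and they were part of a larger cohort.

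Gluconeogenesis makes glucose from lactate, propionate, glycerol and amino acids. Pyruvate carboxylase makes oxaloacetate, the phosphoenolpyruvate carboxykinases turn it into phosphoenolpyruvate, fructose-1,6-bisphosphatase bypasses phosphofructokinase, and glucose-6-phosphatase frees glucose inside the endoplasmic reticulum. Glucagon, through cAMP, and glucocorticoids raise transcription of several of these genes and insulin lowers it. A newborn calf receives glucose and galactose from milk lactose and has to establish its own glucose output in the first days of life, and an adult ruminant absorbs little glucose and depends on gluconeogenesis throughout.

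Between 8277789 and 10397604 reads were counted per library, and each member had at least 122 reads in every library. A pair of CON libraries, replicates 1 and 4, was nearly as alike as resampled reads of 1 library would be, with a chi-square per gene of 1.31, and so were MET replicates 1 and 3, with 1.23, whereas the other 64 pairs of libraries had 23.3 to 122. The libraries of such a pair were counted as 1 sample, CON1+4 or MET1+3, which left 5 samples per diet. Each pair may be a single calf. In that case the 12 libraries come from 10 calves, and p-values and FDR values over the 12 libraries count those calves more than once. The diet effect on each of the 10 genes is given over the 12 libraries, as the study's methods imply, and over the 10 samples. All CON libraries carried the same first index, which no MET library had, so index and diet cannot be told apart. None of the 10 hepatocyte markers checked, ALB and TTR among them, was at 0 in all libraries. Their summed level was 142293 to 194554 CPM (reads of a gene scaled to a common library total) in CON and 116808 to 153461 CPM in MET. In a biopsy, fewer cells of a type and less RNA per cell cannot be told apart.

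PCK1 was lower and G6PC3 higher in MET calves over the 12 libraries, and the other 8 members did not pass the threshold, set at a false discovery rate (FDR) of 0.10 in the quasi-likelihood test of edgeR. These 2 of 10 members stand beside a background of 4.41% of the 13212 genes tested, 2.09% higher and 2.32% lower in MET. Over the 10 samples edgeR called 0 members, beside a background of 0% of 13242 genes. At an unadjusted p of 0.05 it gave 3 members over the 12 libraries (background 20.5%) and 2 over the 10 samples (background 16.3%). DESeq2 called 3 members over the 12 libraries (PCK1, PCK2 and G6PC3; background 10.1%) and PCK1 alone over the 10 samples (background 5.1%). The median log2 fold change of the members was 0.04 over the 12 libraries, against −0.0031 for all genes tested, with 6 members above 0 and 4 below. In no member were the diets fully separated over the 10 samples, which was so for 3.71% of genes tested.

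**Figure D1:**
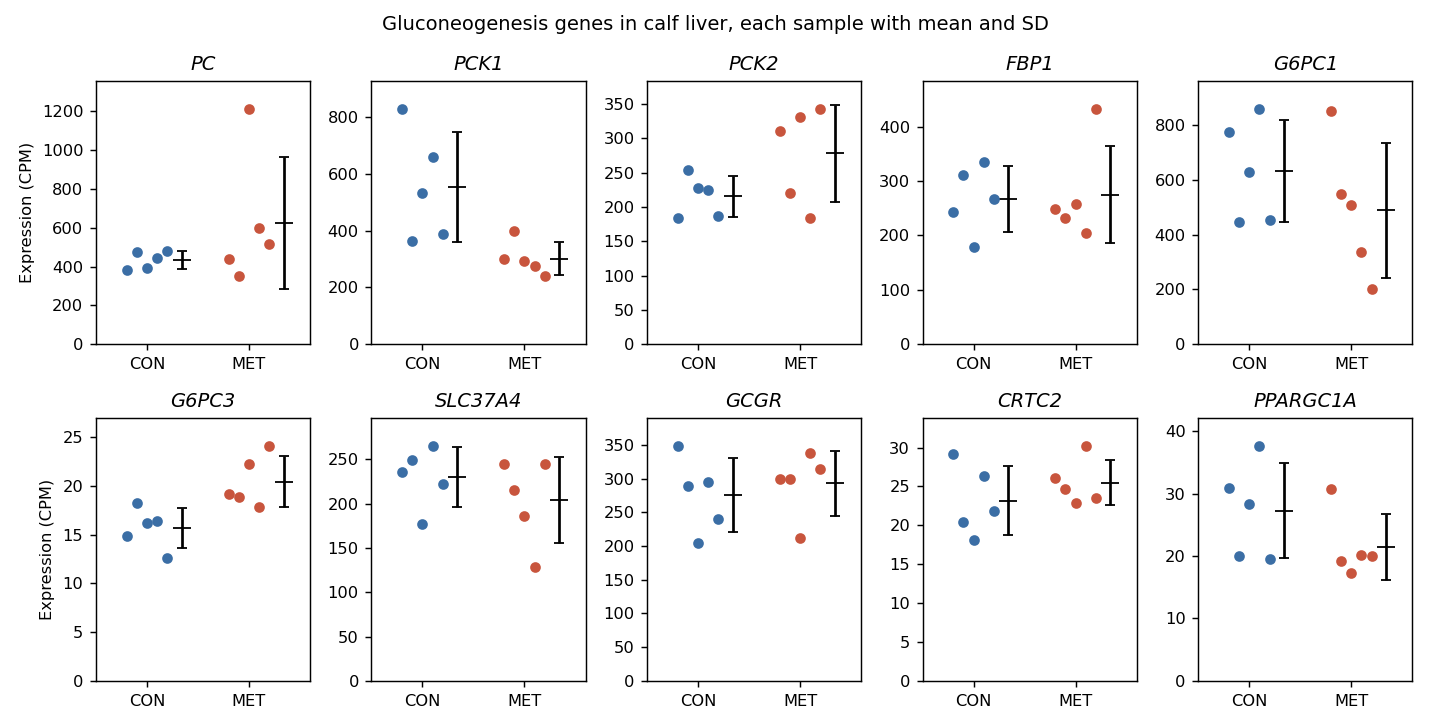
Expression of the 10 members (CPM, axes from 0) in each of the 10 samples, by diet; points are samples in label order, and black bars are the mean ± SD of 5 samples. PCK1 lies lower in 4 of 5 MET samples than in every CON sample, G6PC3 lies higher in 4 of 5, and the other members overlap more.

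Pyruvate carboxylase opens the pathway in the mitochondrion. PC (Entrez gene 338471, chromosome 29 from 45508279 to 45611042 of UMD 3.1.1, minus strand) was at 383, 476, 392, 444 and 480 CPM in CON1+4, CON2, CON3, CON5 and CON6. In MET it was at 437, 353, 1211, 601 and 518 CPM in MET1+3, MET2, MET4, MET5 and MET6. MET4 stood far above all others, and 3 MET samples were above every CON sample while MET2 was below them all. The mean was 435 ± 45.9 CPM in CON and 624 ± 341 CPM in MET (SD, n = 5 each). The log2 fold change was 0.48 (SE 0.25, FDR = 0.300) over the 12 libraries and 0.52 (FDR = 0.387) over the 10 samples. Without MET4 it was 0.14 over the remaining libraries, so the size of this difference rested on 1 calf.

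PCK1, the cytosolic phosphoenolpyruvate carboxykinase whose mRNA follows glucagon, glucocorticoids and insulin, showed the largest difference of the 10 genes. PCK1 (282855, chromosome 13 from 59144588 to 59150714, minus strand) was at 827, 364, 532, 659 and 390 CPM in CON1+4, CON2, CON3, CON5 and CON6. In MET1+3, MET2, MET4, MET5 and MET6 it was at 298, 400, 294, 275 and 240 CPM. All MET samples except MET2 were below the lowest CON sample, and CON samples were spread more widely than MET samples. The mean was 554 ± 193 CPM in CON and 301.5 ± 59.6 CPM in MET (SD, n = 5 each).

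Over the 12 libraries the log2 fold change of PCK1 was −0.99 (SE 0.21, 95% interval −1.45 to −0.54, FDR = 0.0570), a level 1.99-fold lower in MET. Over the 10 samples it was −0.88 (SE 0.23, 95% interval −1.39 to −0.37), with an FDR of 0.175 in edgeR and an adjusted p of 0.0209 in DESeq2. The exact permutation test of log2 CPM gave p = 0.0238 over the 10 samples, not adjusted over the 10 members. The smallest p possible there was 0.00794. The call was lost when either library of the CON1+4 pair was left out, with FDR = 0.113 without CON1 and 0.123 without CON4. Hepatocyte markers had a median log2 fold change of −0.26, with 7 of 10 below 0, and the 10 periportal markers, of the zone where gluconeogenesis is most active, had −0.27, with 6 of 10 below 0, and summed to 3887 to 5339 CPM in CON and 2959 to 5201 CPM in MET. The 10 perivenous markers had a median of −0.21, with 9 of 10 below 0, and summed to 2556 to 4536 CPM in CON and 1868 to 4983 CPM in MET. Over the 12 libraries edgeR called 1 of 10 hepatocyte, 1 of 10 periportal and 0 of 10 perivenous markers, beside a background of 4.41%. DESeq2 called 3, 1 and 0 of 10 there, beside 10.1%, and 3, 0 and 0 of 10 over the 10 samples, beside 5.1%. All of these calls were lower in MET. The part of these 3 marker sets in the PCK1 result was not tested.

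PCK2, the mitochondrial isoenzyme, had the opposite sign. PCK2 (282856, chromosome 10 from 20870276 to 20878563, minus strand) was at 183, 254, 228, 225 and 187 CPM in CON1+4, CON2, CON3, CON5 and CON6, and at 311, 221, 332, 184 and 342 CPM in MET1+3, MET2, MET4, MET5 and MET6. Of the MET samples 3 were above every CON sample and the other two were within the CON range. The log2 fold change was 0.43 (95% interval 0.09 to 0.78, FDR = 0.155) over the 12 libraries and 0.37 (FDR = 0.348) over the 10 samples, so PCK2 did not pass the threshold in either.

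Since a call in one isoenzyme and none in the other does not show that they differ, the log2 ratio of PCK1 to PCK2, from levels per kilobase (kb) of exon, was compared itself. It was 1.10 ± 0.61 in CON and −0.07 ± 0.56 in MET (SD, n = 5 each), a difference of −1.17. PCK1 made up 67.6% ± 9.0 of the summed PCK1 and PCK2 level per kb in CON and 48.8% ± 9.6 in MET. Within CON the share ran from 55.3% in CON2 to 79.6% in CON1+4, and within MET from 37.8% in MET6 to 61.0% in MET2, so the ranges overlapped. The exact permutation test gave p = 0.0238, and 0.0952 after adjustment over the 6 ratios compared.

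The ratio of PCK1 to PC, the enzymes on either side of oxaloacetate, differed by −1.22 on the log2 scale (exact p = 0.0318, adjusted p = 0.0952). The ratio of PCK1 to FBP1 differed by −0.85 (exact p = 0.0714, adjusted p = 0.105). No ratio passed an adjusted p of 0.05 over the 10 samples. Over the 12 libraries 4 of the 6 did, with adjusted p from 0.0325 to 0.0357 in the exact test. That test counts the libraries of each pair as separate samples, so its p may be too small. With MET2 left out of the 10 samples, the ratios of PCK1 to PCK2, PC and PPARGC1A passed, each with an adjusted exact p of 0.0476.

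**Figure D2:**
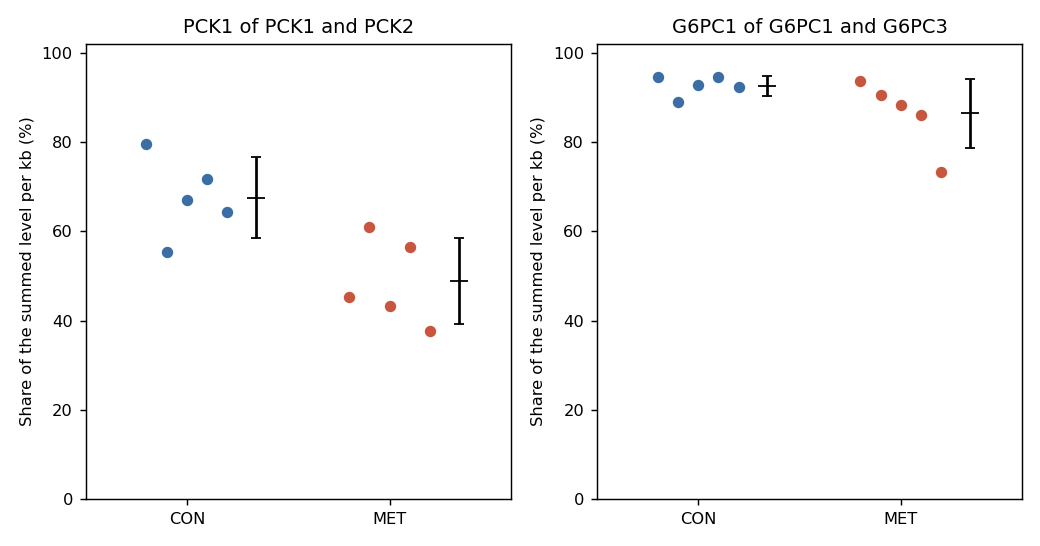
Share of PCK1 in the summed PCK1 and PCK2 level, and of G6PC1 in the summed G6PC1 and G6PC3 level (percent, from CPM per kb), for each sample by diet, with the mean ± SD of 5 samples. The PCK1 share averages 67.6% in CON and 48.8% in MET with overlapping ranges, and the low G6PC1 share of 73.4% is that of MET6.

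FBP1, fructose-1,6-bisphosphatase of liver, showed no detectable difference between the diets. FBP1 (513483, chromosome 8 from 82460863 to 82491694, minus strand) ranged from 179 to 335 CPM in CON and from 205 to 432 CPM in MET, where MET6 held the highest value. The mean was 267 ± 60.8 CPM in CON and 275 ± 89.9 CPM in MET (SD, n = 5 each). The log2 fold change over the 12 libraries was 0.04, with a 95% interval from −0.36 to 0.45 (FDR = 0.931), and 0.04 over the 10 samples (FDR = 0.946), and its sign turned in some alternatives. The paralogue FBP2, best known from muscle, had 87 reads over the 12 libraries together and was not tested.

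G6PC1, the catalytic subunit of glucose-6-phosphatase in liver and kidney, varied more between calves than between diets. G6PC1 (538710, chromosome 19 from 43590681 to 43602973, plus strand) was at 776, 448, 628, 859 and 454 CPM in CON1+4, CON2, CON3, CON5 and CON6. In MET1+3, MET2, MET4, MET5 and MET6 it was at 851, 550, 508, 336 and 200 CPM. MET1+3 was close to the highest CON sample, whereas MET5 and MET6 were below every CON sample. The log2 fold change was −0.26 (95% interval −0.92 to 0.40, FDR = 0.673) over the 12 libraries and −0.37 (FDR = 0.610) over the 10 samples. With 1 library left out it ranged from −0.43 without MET1 to −0.089 without MET6, and was not called in any of the 12 fits. Over the 10 samples its 95% interval, −1.10 to 0.36, still included a difference of the size seen in PCK1.

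G6PC3, the ubiquitous glucose-6-phosphatase that neutrophils depend on, was higher in MET. G6PC3 (369023, chromosome 19 from 44531725 to 44536440, plus strand) was at 14.9, 18.2, 16.2, 16.4 and 12.7 CPM in CON1+4, CON2, CON3, CON5 and CON6. In MET1+3, MET2, MET4, MET5 and MET6 it was at 19.1, 18.8, 22.2, 17.9 and 24.1 CPM. All MET samples except MET5 were above the highest CON sample, CON2. The log2 fold change was 0.38 over the 12 libraries (SE 0.11, 95% interval 0.14 to 0.62, FDR = 0.0918) and 0.38 over the 10 samples (FDR = 0.202). The exact permutation test over the 10 samples gave p = 0.0159, not adjusted over the 10 members.

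The call in G6PC3 was close to the threshold. It was lost in 11 of the 12 fits that left out 1 library, as well as once each library had been corrected for its trend with gene length (FDR = 0.167). With that correction 1 member, PCK1, was called, beside a background of 1.89% of genes. Neutrophil markers summed to 41.2 to 76.9 CPM in CON and 66.7 to 179 CPM in MET. All 4 tested markers of 5 were above 0 in log2 fold change, with a median of 1.15. Kupffer cell and macrophage markers summed to 1182 to 1632 CPM in CON and 1408 to 1892 CPM in MET, with 9 of 9 above 0 and a median of 0.23. Over the 12 libraries, without the length correction, edgeR called 1 of these 9 (11.1%, background 4.41%) and 0 of the 4 neutrophil markers. DESeq2 called 3 of 9 (33.3%) and 1 of 4 (25%) there, beside a background of 10.1%. Over the 10 samples DESeq2 called 1 of 9 and 0 of 4, beside 5.1%. T and NK cell markers summed to 15.6 to 25.7 CPM in CON and 16.5 to 33.0 CPM in MET, with 5 of the 6 tested of 8 above 0 and a median of 0.43. The part of these markers in the G6PC3 result was not tested. The log2 ratio of G6PC1 to G6PC3 per kb was 3.69 ± 0.45 in CON and 2.83 ± 0.90 in MET (exact p = 0.0873, adjusted p = 0.105). G6PC2, the pancreatic islet paralogue, had 0 reads in the 12 libraries, which allows a level of up to 0.289 to 0.362 CPM, the value of 3 reads in a library.

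SLC37A4, the transporter that brings glucose 6-phosphate to the phosphatase, did not differ beyond its spread. SLC37A4 (506423, chromosome 15 from 30121667 to 30128416, minus strand) was at 230.3 ± 33.6 CPM in CON and 204 ± 48.6 CPM in MET (SD, n = 5 each), between 177 and 265 CPM in CON and between 129 CPM in MET5 and 245 CPM in MET6. Its log2 fold change was −0.13 (95% interval −0.47 to 0.21, FDR = 0.671) over the 12 libraries and −0.17 (FDR = 0.673) over the 10 samples, and the log2 ratio of G6PC1 to SLC37A4 differed by −0.28 (exact p = 0.635, adjusted p = 0.635).

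**Figure D3:**
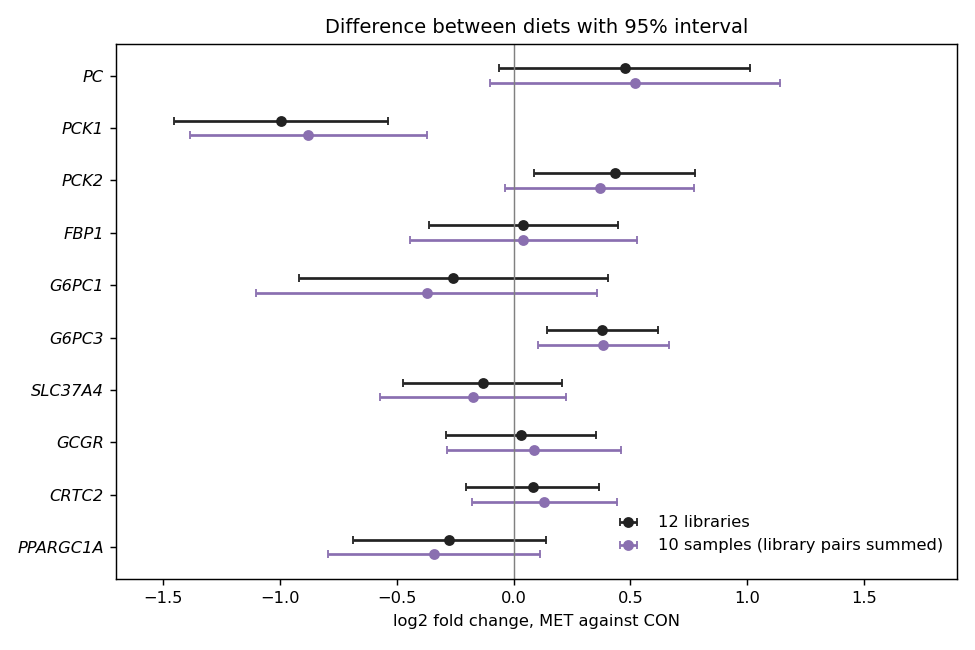
Log2 fold change of MET against CON for the 10 members with 95% intervals, over the 12 libraries and over the 10 samples. PCK1 lies farthest from 0, at −0.99 and −0.88; intervals of PCK1 and G6PC3 leave out 0 in both fits, and that of PCK2 only over the 12 libraries.

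Of the 3 regulators, none passed the threshold. GCGR, the glucagon receptor (515433, chromosome 19 from 51673175 to 51681648, minus strand), ranged from 205 to 348 CPM in CON and from 212 to 339 CPM in MET, with a log2 fold change of 0.03 (95% interval −0.29 to 0.35, FDR = 0.934). CRTC2, the coactivator that carries the cAMP signal to CREB (540959, chromosome 3 from 16535311 to 16544883, plus strand), ranged from 18.1 to 29.1 CPM in CON and from 22.9 to 30.2 CPM in MET, with a log2 fold change of 0.08 (95% interval −0.20 to 0.37, FDR = 0.769). For GCGR the diets covered nearly the same range, and for CRTC2 CON2, CON3 and CON6 lay below every MET sample. Over the 10 samples the log2 fold change was 0.088 (FDR = 0.835) for GCGR and 0.13 (FDR = 0.686) for CRTC2.

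PPARGC1A, the coactivator PGC-1α that raises PCK1 and G6PC1 transcription in fasting (338446, chromosome 6 from 44854113 to 45590897, minus strand), was at 30.9, 20.0, 28.4, 37.6 and 19.5 CPM in CON1+4, CON2, CON3, CON5 and CON6. In MET1+3, MET2, MET4, MET5 and MET6 it was at 30.7, 19.2, 17.3, 20.1 and 20.0 CPM. The CON samples high in PPARGC1A were CON1+4, CON3 and CON5, which were also the 3 highest CON samples in PCK1 and in G6PC1. In MET, MET1+3 was highest in PPARGC1A and in G6PC1, whereas MET2 was highest in PCK1. The log2 fold change of PPARGC1A was −0.28 (95% interval −0.69 to 0.14, FDR = 0.444) over the 12 libraries and −0.34 (FDR = 0.438) over the 10 samples, and the log2 ratio of PCK1 to PPARGC1A differed by −0.50 (exact p = 0.0714, adjusted p = 0.105).

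Per kb of exon, most enzymes of the pathway were above its regulators. FBP1 had the highest mean level, 216 ± 57.8 CPM per kb over the 10 samples (SD), then PCK1 with 166 ± 73.5, G6PC1 with 135 ± 52.9, PCK2 with 111 ± 27.4 and PC with 107 ± 50.5 CPM per kb. Neighbours among these 5 did not differ beyond their spread, with adjusted p from 0.113 to 0.475 in exact sign-flip permutation tests of 9 neighbouring pairs. SLC37A4 followed at 60.6 ± 11.6 CPM per kb, below PC in 10 of 10 samples (adjusted exact p = 0.00440), and GCGR at 47.8 ± 8.3 CPM per kb, which was not shown to differ from SLC37A4 (adjusted exact p = 0.0527). In all, 4 of the 9 neighbouring pairs differed over the 10 samples, and 5 over the 12 libraries. G6PC3 at 13.1 ± 2.4, CRTC2 at 7.62 ± 1.18 and PPARGC1A at 2.25 ± 0.64 CPM per kb were each below the preceding gene in 10 of 10 samples, each with an adjusted exact p of 0.00440. In CON, PCK1 averaged 215 CPM per kb, close to FBP1 at 213, and these were the highest means. In MET PCK1 averaged 117 CPM per kb, after FBP1 at 220, PC at 126, which MET4 raised, PCK2 at 125 and G6PC1 at 118.

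**Figure D4:**
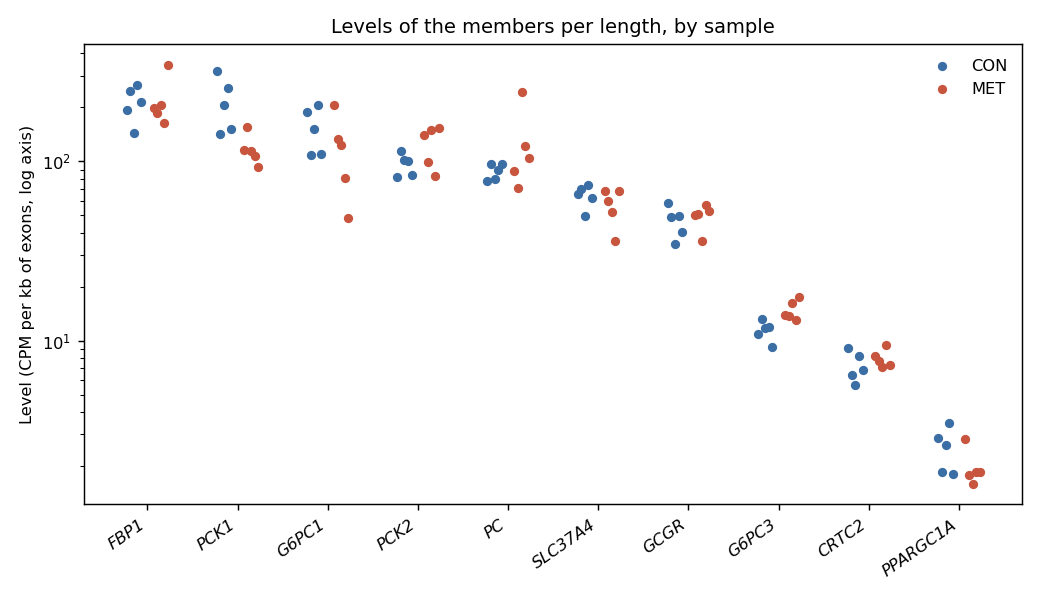
Level of each member per kilobase of exon (CPM per kb, log axis) in the 10 samples, ordered by mean, with diets marked. The order runs from FBP1 at 216 to PPARGC1A at 2.25 CPM per kb; the first 5 genes overlap and the last 3 are each below the gene before in all samples.

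The members were also compared from calf to calf within diets, as deviations of log2 CPM from the diet mean over the 10 samples. Of the 45 pairs, 0 passed an adjusted p of 0.05 in the exact permutation test within diets and 5 had an unadjusted p under 0.05. PCK1 and G6PC1 had r = 0.66 and rho = 0.78 (exact p = 0.0187 and 0.0158, adjusted p = 0.281 and 0.237), and r was 0.67 without the samples farthest from the median of PCK1. PCK2 and G6PC3 had r = 0.79 and rho = 0.82 (exact p = 0.00979 and 0.0142, adjusted p = 0.281 and 0.237), and GCGR and CRTC2 had r = 0.78 and rho = 0.73 (exact p = 0.0166 and 0.0331, adjusted p = 0.281 and 0.237). Without the samples farthest from the median of the first gene, r was 0.79 and 0.70 for these pairs. PPARGC1A had r = 0.59 with PCK1 (exact p = 0.127, adjusted p = 0.658) and r = 0.66 with G6PC1 (exact p = 0.0416, adjusted p = 0.374). No pair of members was thus shown to vary together after adjustment.

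The genes most like PCK1, G6PC1 and PPARGC1A in these deviations were taken from all 13212 genes tested, 5 for each, as a description without a test. PCK1 was followed most closely by PEX11A (r = 0.96), FAM149B1 (0.95), JAM3 (0.95), DDIT3 (0.94) and LOC107132853 (0.93). DDIT3, the stress-induced transcription factor CHOP, had a diet effect of the opposite sign, with a log2 fold change of 0.52 (FDR = 0.0452). G6PC1 was followed by ZNF3 (0.97), AAK1 (0.92), PTP4A1 (0.91), TRMT1L (0.91) and LOC505773 (0.91). PPARGC1A was followed by FANCC (0.89), PDK4 (0.89), ZNF248 (0.88), LYL1 (0.88) and RNASE4 (0.88). PDK4, the kinase that closes pyruvate dehydrogenase in fasting and spares pyruvate, had a log2 fold change of −0.59 (FDR = 0.192).

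Around the members, 117 genes of the pathway were followed in 6 lists, of which 106 were tested. The lists were written from general knowledge with earlier results of these data known. Their shares past a threshold are thus a description and no test. Over the 12 libraries 10 of the 106 (9.43%) passed FDR 0.10, 3 higher and 7 lower in MET, beside the background of 4.41%, and over the 10 samples 0 passed in edgeR, with 22 of 106 at an unadjusted p of 0.05 beside the background of 16.3%, and DESeq2 called 14 of the 101 it tested (13.9%) beside 5.1%. Values below are over the 12 libraries, and these 10 genes had an FDR of 0.174 or more over the 10 samples. In 6 of these 10 genes the diets were fully separated over the 10 samples, and since the genes were taken for their difference this adds nothing to the call.

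Genes that bring substrate into the pathway had 3 calls among 25 (12%, background 4.41%) in edgeR. DESeq2 called 4 of 25 (16%, background 10.1%), and over the 10 samples 4 of 24 (16.7%, background 5.1%). GOT1, the cytosolic aspartate aminotransferase of the malate-aspartate shuttle that supplies cytosolic oxaloacetate, was at 68.0 ± 21.3 CPM in CON and 123 ± 25.8 CPM in MET (SD, n = 5 each; log2 fold change 0.99, FDR = 0.0674). Its size was as large as that of PCK1 with the opposite sign. On the route from propionate to succinyl-CoA, PCCA, a subunit of propionyl-CoA carboxylase, was lower (93.2 ± 9.4 against 72.5 ± 9.2 CPM, log2 fold change −0.38, FDR = 0.0826), and MCEE, methylmalonyl-CoA epimerase, which acts next, was higher (35.8 ± 2.9 against 46.9 ± 5.9 CPM, log2 fold change 0.41, FDR = 0.0653). MCEE was not called after removal of the length trend (FDR = 0.229). LDHB, a lactate dehydrogenase subunit and the gene of the highest level per kb in this list, had a log2 fold change of 0.10 (FDR = 0.836).

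The steps shared with glycolysis gave 0 calls among 10 in edgeR and 0 in DESeq2, with 3 of 10 at an unadjusted p of 0.05 in each over the 12 libraries, where the edgeR background is 20.5%, and 0 of 10 in each over the 10 samples. Opposing glycolytic steps gave 1 call among the 13 tested of 15 (7.69%, background 4.41%). This was PDK1, a pyruvate dehydrogenase kinase, at 20.0 ± 5.0 CPM in CON and 14.3 ± 2.0 CPM in MET (log2 fold change −0.54, FDR = 0.0914; 0.145 after removal of the length trend). DESeq2 called 2 of the 13 over the 12 libraries (background 10.1%), PDK1 and GCKR. GCKR was higher in MET (edgeR log2 fold change 0.87, FDR = 0.165). Over the 10 samples DESeq2 called 1 of 13 (background 5.1%), which was higher, so that PDK1 was not called there. PFKFB1, the liver enzyme that makes and breaks down fructose 2,6-bisphosphate, the inhibitor of FBP1, had a log2 fold change of 0.12 (FDR = 0.713). Glucose export and glucose 6-phosphate handling gave 0 calls among the 9 tested of 12 in edgeR, with 2 at an unadjusted p of 0.05. DESeq2 called 2 of the 8 genes it tested there over the 12 libraries (25%, background 10.1%) and 1 of 8 over the 10 samples (12.5%, background 5.1%). Both of the former were lower in MET: SLC2A2, the hepatic glucose transporter GLUT2 (edgeR log2 fold change −0.83, FDR = 0.123), and PGM1, a phosphoglucomutase (−0.30, FDR = 0.148). UGP2, which makes UDP-glucose, had a log2 fold change of 0.28 (FDR = 0.435).

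Glucagon, cAMP and CREB signalling gave 0 calls among the 23 tested of 26 in edgeR, with 3 at an unadjusted p of 0.05, where the background is 20.5%. Of the 23, 17 had a log2 fold change below 0, as had 6654 of all 13212 genes tested, and the median was −0.16, or −0.087 after removal of the length trend. DESeq2 called 2 of 22 over the 10 samples (9.09%, background 5.1%) and 2 of 23 over the 12 libraries (8.7%, background 10.1%). The latter were regulatory subunits of protein kinase A and lower in MET: PRKAR2A (edgeR log2 fold change −0.80, FDR = 0.101) and PRKAR2B (−0.79, FDR = 0.111). GNAS, the stimulatory G protein between the glucagon receptor and adenylyl cyclase, was at 785 ± 135 CPM in CON and 782 ± 104 CPM in MET (SD, n = 5 each). CREB1 had 96 reads over the 12 libraries and was not tested.

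Transcription factors and coregulators held 6 of the 10 calls, among the 26 tested of 29 (23.1%, background 4.41%), 1 higher and 5 lower in MET. DESeq2 called 6 of 25 (24%, background 10.1%), and over the 10 samples 6 of 24 (25%, background 5.1%). NR0B2, the corepressor SHP that dampens HNF4A and other activators of gluconeogenic genes, was at 17.2, 28.9, 8.69, 14.1 and 10.2 CPM in CON1+4, CON2, CON3, CON5 and CON6, and at 57.4, 35.1, 42.4, 30.2 and 30.8 CPM in MET1+3, MET2, MET4, MET5 and MET6. Every MET sample was above every CON sample, and the log2 fold change was 1.40 (SE 0.27, FDR = 0.0452). NR3C1, the glucocorticoid receptor, was at 46.2 ± 4.0 CPM in CON and 33.0 ± 4.4 CPM in MET (SD, n = 5 each), with a log2 fold change of −0.49 (FDR = 0.0528). KLF9, a transcription factor induced by glucocorticoids, was at 9.05 ± 1.97 CPM in CON and 4.02 ± 2.08 CPM in MET, with a log2 fold change of −1.05 (FDR = 0.0869).

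The acetyltransferase gene KAT2B was at 81.6 ± 10.4 CPM in CON and 55.9 ± 7.4 CPM in MET (log2 fold change −0.58, FDR = 0.0452). FOXO4, a factor of the insulin-restrained FOXO family, was at 18.0 ± 3.0 and 12.3 ± 1.8 CPM (log2 fold change −0.53, FDR = 0.0635), and PPARA, the fatty acid receptor of fasting liver, at 17.9 ± 1.6 and 13.1 ± 2.0 CPM (log2 fold change −0.42, FDR = 0.0849). All MET samples were below all CON samples for KAT2B, NR3C1, FOXO4 and PPARA. After removal of the length trend NR0B2, KAT2B and FOXO4 were called, and NR3C1 (FDR = 0.116), PPARA (0.102) and KLF9 (0.110) were not. HNF4A, the factor of the highest level per kb in this list, had a log2 fold change of −0.14 (FDR = 0.578).

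**Figure D5:**
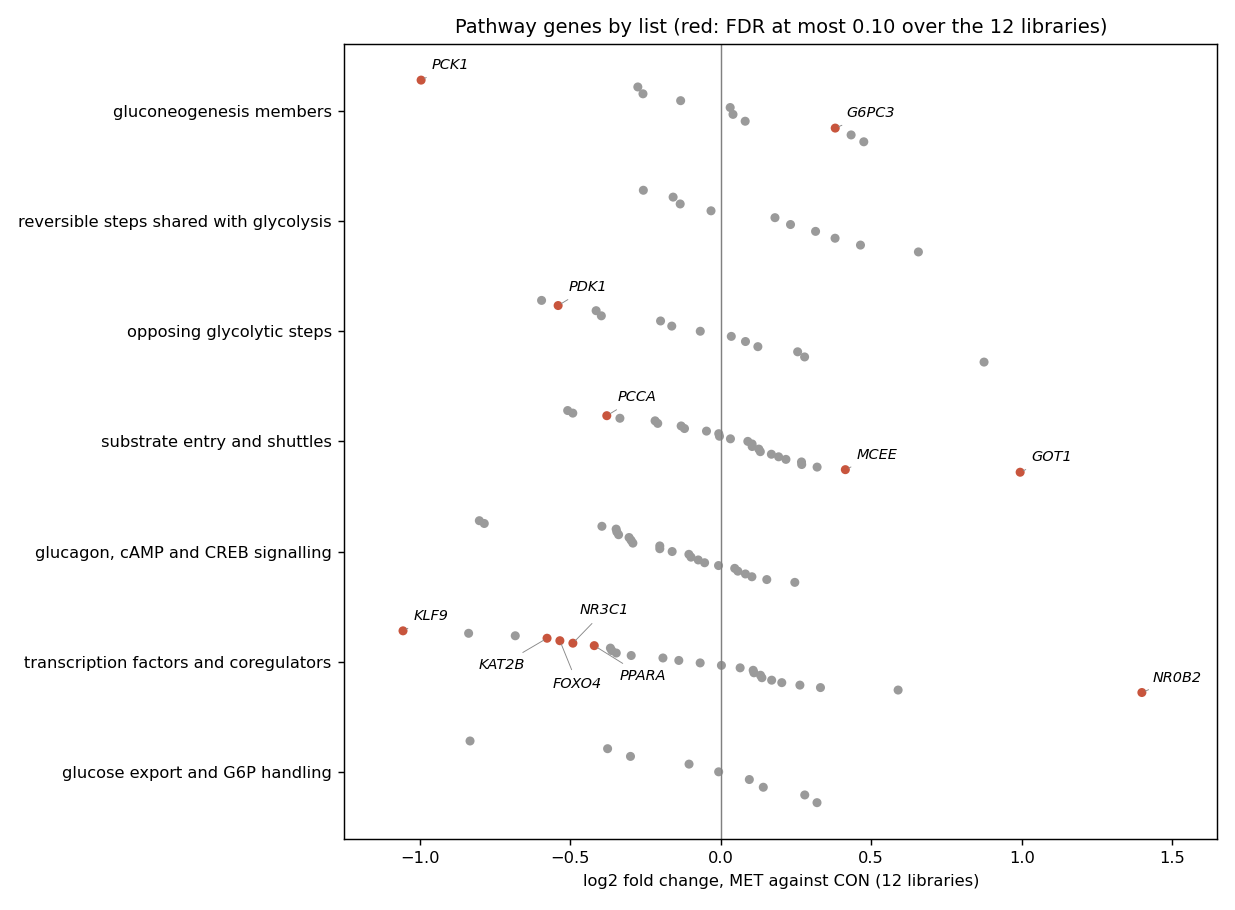
Log2 fold change of MET against CON over the 12 libraries for the 10 members and the 106 tested genes of 6 other pathway lists, 1 point per gene; red points passed FDR 0.10 and are named. The vertical placement within a list only separates points; 12 of the 116 genes shown are red, 6 of them transcription factors and coregulators.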

How the data were processed

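Per the labels, 12 libraries of calf liver RNA were prepared as stranded mRNA libraries and read from one end on 1 lane. Adaptors were trimmed per the labels. The authors aligned the reads with STAR 2.5.3a to UMD 3.1.1, counted them with featureCounts of Subread 1.5.2, and deposited raw counts per Entrez gene ID with exon positions, without normalization. Reads matching several places were not counted, so genes with near-identical copies can be undercounted. No member shared exons with another gene. Of the 30336 IDs, 25105 were named by a RefSeq table of the later assembly ARS-UCD2.0. Chromosomes follow the sequence names in the files.

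Counts were tested with edgeR 4.0.16 in R 4.3.3 (quasi-likelihood test, diet alone, TMM factors, default filter with a minimum count of 10, Benjamini-Hochberg adjustment over all genes tested), which kept 13212 of the 21227 genes with a read. CPM used TMM factors, and exact two-sided permutation tests used log2 CPM with a prior count of 2 over 252 arrangements of the 10 samples. Each diet's mean and SD rest on 5 samples, a library pair entering with its average CPM in means and with summed reads in tests. The labels number the libraries without naming the calves, so p-values measure the spread between these samples, which may in part be technical. Intervals of fold changes come from the edgeR fit and include the spread between samples, whereas floors of 3 reads cover counting error only. Diets followed the sample titles, and no library was unmapped. Same-numbered libraries of the diets were not paired.

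The members and lists were chosen with earlier results of these data known. Named genes are the 10 members, from each other list the genes past FDR 0.10 (at most 6) and the gene of the highest level per kb, and the 5 genes most like PCK1, G6PC1 and PPARGC1A. Not every gene this rule chose is reported here. FBP2, G6PC2, CREB1, GCKR, SLC2A2, PGM1, PRKAR2A and PRKAR2B were named after their values were seen. Alternatives covered normalization, test (DESeq2 1.42.0, voom of limma 3.58.1), filter, length trend, replicate block and libraries left out. Scripts were tested on simulated data.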

Additional observations from a re-analysis of the deposited data

Results flagged for a closer look

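Each member was screened in each diet for 1 sample standing apart from the other 4, by the gap of the highest or lowest sample to its neighbour against the whole range, and 3 of 20 groups were flagged, where chance flags about 1 in 20. PC in MET4 was at 1211 CPM, against 353 to 601 CPM in the other MET samples. FBP1 in MET6 was at 432 CPM, against 205 to 257 CPM in the others. PPARGC1A in MET1+3 was at 30.7 CPM, against 17.3 to 20.1 CPM in the others. All 3 lie in MET and in different samples.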

How the results depend on the processing

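Over the 12 libraries PCK1 and G6PC3 passed FDR 0.10, and the direction of both held in all alternatives run. With library pairs summed, log2 fold changes were −0.88 for PCK1 and 0.38 for G6PC3, and 0 members, 0 other pathway genes and 0 of all genes passed in edgeR, whereas DESeq2 on the same 10 samples called 1 member, with 0.39 for G6PC3 not called. DESeq2 over the 12 libraries also called PCK2 (0.44), with 16 other pathway genes and 1291 genes in all. With library size only, neither PCK1 (−0.95, FDR = 0.101) nor G6PC3 (0.41) passed, leaving 0 members, 3 other pathway genes and 107 genes in all. The library size without the 10 most counted genes gave 381 genes. Upper quartile factors (0.36 for G6PC3), no filter (0.39) and a filter of CPM above 0.5 in 2 libraries (0.39) left 1 member each, and no filter gave 6 other pathway genes and 238 in all. RLE factors, voom and robust estimation kept the count at 2 members.

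Removal of the length trend gave 0.28 for G6PC3, not called, and turned the sign of FBP1 (−0.077, and −0.089 in the exact comparison), with 1 member, 5 other pathway genes and 250 genes in all. Together with summed pairs, an alternative chosen after seeing the data, it gave −0.89 for PCK1, 0.28 for G6PC3 and −0.078 for FBP1, with 0 members, 0 other pathway genes and 0 genes called. Without MET4 and with summed pairs, likewise chosen afterwards, PCK1 was at −0.87 and G6PC3 at 0.35, and 0 members, 0 other pathway genes and 0 genes passed.

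With the replicate block, PCK1 was at −0.94 (FDR = 0.1504) and G6PC3 at 0.38 (FDR = 0.219), with 0 members, 0 other pathway genes and 6 genes in all. Deviations of same-numbered libraries correlated between −0.17 and 0.14, and 0 CON libraries correlated best with their own number, so the numbers give no pairing.

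Leaving out 1 library at a time gave −1.10 to −0.88 for PCK1, 0.32 to 0.43 for G6PC3, 0.37 to 0.53 for PCK2 (called without MET5), −0.14 to 0.12 for FBP1 (below 0 without CON3, −0.048, or MET6, −0.14) and −0.049 to 0.11 for GCGR (below 0 without CON3, −0.049, CON6, −0.016, or MET5, −0.013). Members called ranged from 0 (without CON1 or CON4) to 2, other pathway genes from 0 (without the same libraries) to 9, and all genes from 26 to 565.

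Over the 12 libraries the log2 ratios to PCK2, PC, PPARGC1A and FBP1 of PCK1 differed by −1.34, −1.29, −0.66 and −0.96 and passed an adjusted exact p of 0.05. Each library of a pair counted there as its own sample. With 1 of the 10 samples left out, these ratios differed by −1.36 to −0.95, −1.49 to −0.94, −0.64 to −0.37 and −1.05 to −0.60. The first 3 passed only without MET2 (−1.35, −1.49 and −0.64). The ratio of G6PC1 to SLC37A4 ranged from −0.45 to 0.074, above 0 without MET6. The cause of these changes was not tested. Depth limits G6PC3, CRTC2 and PPARGC1A most, with 122 to 361 reads per library.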
